A study of Mus musculus with 6 samples.

Results

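The RNA of 10 genes of mesoderm and primitive streak formation, T, Mixl1, Eomes, Mesp1, Mesp2, Gsc, Evx1, Kdr, Tbx6 and Snai1, was followed in mouse embryonic stem cells on 6 Agilent arrays read in a single colour. They were taken by the gene name that the scanner files give each probe, which found 13 probes for the 10 genes, of 55681 probes and 34650 gene names on the array. Wild-type cells of the line BJ FF2 ES (WT) were on 3 arrays, and cells derived from that line with a knockout of Tet1, Tet2 and Tet3 (TKO) were on the other 3. Both groups were maintained in 2i medium, which holds an inhibitor of MEK and an inhibitor of GSK3, on feeder cells of mouse embryo, and were moved to matrigel without feeders before collection. Each array holds the RNA of a single dish. The dishes are replicates of 1 WT line and of TKO cells made from it, the labels do not say how many TKO clones were used or which exons were altered, and every p-value here reflects only how far such dishes spread.

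The primitive streak is the furrow of the gastrulating embryo through which epiblast cells leave the epithelium and become mesoderm and definitive endoderm. Nodal, Wnt and BMP signals induce it, and cells in it switch on T-box factors (T, Eomes, later Tbx6), homeobox factors (Mixl1, Gsc, Evx1) and, as mesoderm forms, the basic helix-loop-helix factors Mesp1 and Mesp2. Snai1 represses E-cadherin in cells that leave the epithelium, and Kdr is the VEGF receptor of the mesoderm that gives rise to blood and vessels. The Tet enzymes oxidise 5-methylcytosine, which in mammals lies mainly at CG dinucleotides. Embryonic stem cells in 2i medium represent a stage before the streak, and the comparison asks how these genes differ in undifferentiated cells with and without the 3 enzymes.

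Of the 10 genes, 7 could be tested. Tbx6 was higher in TKO cells by a small margin (1.24-fold). Eomes, Mesp2 and Gsc were lower (1.68-fold, 1.8-fold and 1.57-fold), and Mesp1, Snai1 and the brighter Kdr probe did not pass the test. A second Kdr probe was lower in TKO cells, where 1 of 3 arrays measured it, by an amount that depended on the background correction (log2 difference -2.03, and -0.51 with normexp). T was well above background on no WT array and on 2 of 3 TKO arrays, Evx1 on 1 WT array only and Mixl1 on none. A level is the log2 processed signal of a probe with the 75th percentile of its own array subtracted, so 0 is that percentile. A difference is the TKO mean less the WT mean over 3 dishes each, ± is the SE of the limma fit, and adjusted p is Benjamini-Hochberg over all 21562 tested genes. A gene was tested through its brightest probe among those that 3 or more of the 6 arrays flagged as well above background. A fold given as "at least" is set against the lowest signal of any probe that was well above background on the dimmer arrays. The limit of a single probe can be higher, and its fold then smaller.

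These counts stand against a wide background. Across all tested genes, 59.7% were called at an adjusted p under 0.05 (30% higher and 29.7% lower in TKO), and in 67.6% the groups did not overlap. Among the members, 4 of 7 were called and 4 of 7 had groups that did not overlap, which is near that background. The median difference of the 7 tested members was -0.26, against -0.01 over all tested genes. Calls over all genes were split evenly here (50.3% higher), but 39.6% of them were higher after quantile normalization and 29.4% after centring on the median, where the median of all genes moved to -0.107 and -0.203. In RNA of whole dishes, fewer cells that express a gene and less of its RNA per cell cannot be told apart.

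**Figure D1:**
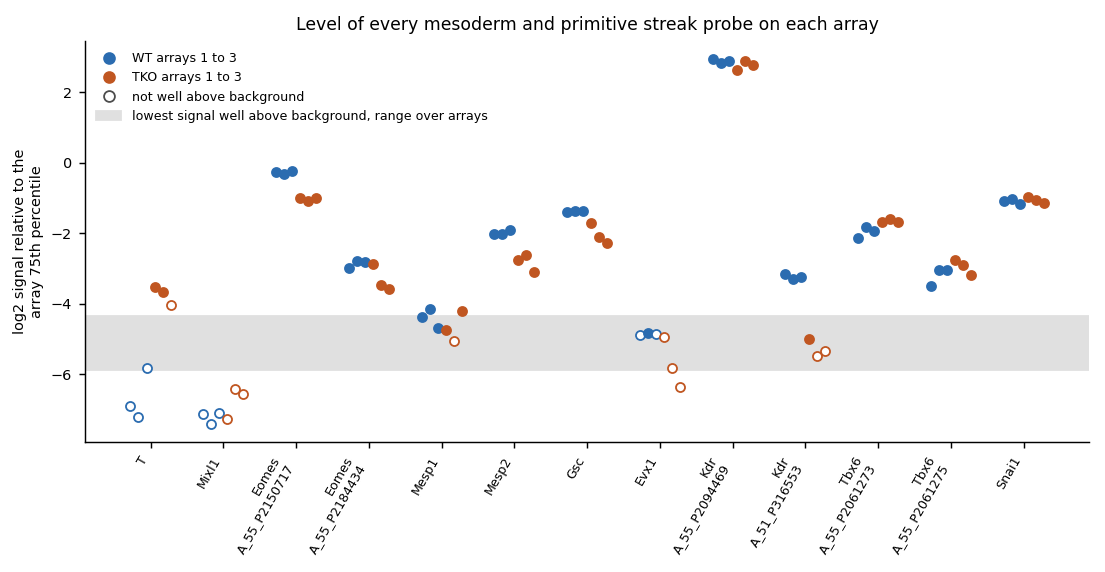
Level of each of the 13 member probes on each array, as log2 signal relative to the 75th percentile of that array. Blue points are WT and orange points TKO arrays, in replicate order, and open points were not well above background; the grey band spans the lowest signal that was well above background on the 6 arrays (-5.87 to -4.36). The brighter Eomes probe, Mesp2 and Gsc are lower on every TKO array than on any WT array, the dimmer Eomes probe overlaps between groups, and Mixl1 is open on all 6 arrays.

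Promoter sequence is shown for the 3 genes that fell and for T, because CG dinucleotides are where the substrate of the Tet enzymes lies. The windows are the 250 bases before the gene's start in RefSeq, build GRCm38.p6, written on the strand of the gene from 5′ to 3′, with each CG in capitals. The T window lies at chr17:8434173-8434422 (plus strand), Eomes at chr9:118477939-118478188 (plus strand), Mesp2 at chr7:79810477-79810726 (plus strand) and Gsc at chr12:104473237-104473486 (minus strand).
T: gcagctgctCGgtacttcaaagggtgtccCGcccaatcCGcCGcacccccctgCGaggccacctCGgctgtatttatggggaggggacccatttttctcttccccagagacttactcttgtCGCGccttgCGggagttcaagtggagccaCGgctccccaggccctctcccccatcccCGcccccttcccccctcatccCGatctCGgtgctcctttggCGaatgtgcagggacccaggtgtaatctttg
Eomes: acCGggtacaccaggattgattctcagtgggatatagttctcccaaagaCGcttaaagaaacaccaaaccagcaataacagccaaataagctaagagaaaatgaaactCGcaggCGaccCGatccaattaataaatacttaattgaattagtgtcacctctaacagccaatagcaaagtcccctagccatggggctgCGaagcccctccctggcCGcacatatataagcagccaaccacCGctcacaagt
Mesp2: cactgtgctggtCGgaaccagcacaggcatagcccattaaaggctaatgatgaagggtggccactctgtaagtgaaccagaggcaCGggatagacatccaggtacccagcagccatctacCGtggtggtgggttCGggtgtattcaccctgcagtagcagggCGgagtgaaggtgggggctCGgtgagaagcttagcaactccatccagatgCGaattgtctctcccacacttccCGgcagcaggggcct
Gsc: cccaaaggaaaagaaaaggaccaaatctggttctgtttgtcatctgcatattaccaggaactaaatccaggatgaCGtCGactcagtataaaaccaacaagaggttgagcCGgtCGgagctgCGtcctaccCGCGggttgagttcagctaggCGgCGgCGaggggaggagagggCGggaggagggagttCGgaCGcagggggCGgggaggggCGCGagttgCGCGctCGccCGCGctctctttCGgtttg

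The windows differ widely in CG content. T has 14 CG, Eomes 8, Mesp2 8 and Gsc 22. Of the other members, Mesp1 has 2, Tbx6 6, Evx1 10, Kdr 16 and Snai1 27, and 9 of the 10 members matched the promoter table. The median over 32851 windows is 6, and 14.8% of windows have at least as many CG as that of Gsc and 43% as many as those of Eomes and Mesp2. The 3 genes that fell thus span from near the median to the upper part of the range, and the Snai1 window, with the most CG of the members (8.56% of windows have as many), belongs to a gene that did not pass the test. Methylation was not measured on these arrays.

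The T-box motif TCACACCT was searched on both strands, itself and its reverse complement, in the same windows extended to 50 bases after the start. It is in 1.28% of windows, and among the members only in that of Mesp1, where it begins at base 6 after the start (chr7:79793567-79793596, minus strand, GRCm38.p6, motif in capitals).
Mesp1: aggggcccgctTCACACCTagggctcagga

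T, also called Brachyury, is the T-box factor of the streak and the notochord. Its probe (A_55_P2029161, chr17:8635302-8635361, plus strand, mm9) had levels of -6.91, -7.21 and -5.81 on the WT arrays against -3.53, -3.66 and -4.05 on the TKO arrays. In intensity units these are 3.04, 2.69 and 6.96 for WT, against 35.4, 30.3 and 25 for TKO. All 3 TKO values lay above all WT values, but the probe was well above background only in TKO dishes 1 and 2. The TKO mean of T was 3.11-fold above the lowest signal that counted as well above background for any probe on the WT arrays. That mean includes TKO dish 3, where T was not well above background, so the value is not a lower bound. Fitted over all 34650 genes without a filter on dim probes, the mean levels of -6.64 and -3.74 differed by 2.9 ± 0.406 (adjusted p = 0.00446 with limma). In that fit 35.4% of genes were called. The size of this difference rests on WT signal that was not well above background. With normexp background correction, which adds an offset to every signal, the difference was 0.45. By the less strict flag of the scanner software (signal positive and significant), T was detected on 1 WT array and all 3 TKO arrays.

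T2, named brachyury 2 in the files, is the nearest tested gene to T, its probe 19.8 kb away on the same chromosome (chr17:8615469-8615528, mm9). T2 read -6.99, -5.98 and -6.61 on the WT arrays, none well above background, and -2.33, -2.52 and -2.4 on the TKO arrays, all 3 well above background. It was at least 7.79-fold higher in TKO (adjusted p = 6.66e-05). The nearest tested gene on the other side, the phosphodiesterase gene Pde10a, lies 540 kb away and was lower by 0.39 (-0.39 ± 0.123, adjusted p = 0.0389). T and T2 therefore stood apart from the WT dishes in the same direction, and Pde10a in the other.

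Eomes, the T-box factor needed for definitive endoderm and for mesoderm to leave the streak, was the member with the tightest replicates among those that fell. Its brighter probe (A_55_P2150717, chr9:118394425-118394484, plus strand, mm9) read -0.27, -0.33 and -0.25 on the WT arrays against -1.01, -1.08 and -1 on the TKO arrays. The groups did not overlap, and the difference of -0.74 ± 0.0429 was far larger than the spread between dishes (adjusted p = 4.93e-05). Eomes was called in all 17 alternative settings, with differences from -0.94 to -0.59.

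The second Eomes probe (A_55_P2184434, chr9:118395189-118395248) lies 764 bases further along. It read -3, -2.78 and -2.83 on the WT arrays against -2.87, -3.48 and -3.59 on the TKO arrays, so TKO dish 1 lay among the WT dishes. Fitted over all 30734 kept probes, of which 57.1% were called, it differed by -0.44 ± 0.2 (adjusted p = 0.112). TKO dishes 2 and 3 lay in another row of the slide than the other 4 arrays; within the first row the difference was 0.00. This probe passed the threshold in 4 of 14 alternatives. Without TKO dish 1 its difference was -0.66 (adjusted p = 0.00351) and with normexp -0.21 (adjusted p = 0.0316). After quantile normalization it was -0.69 (adjusted p = 0.0376) and after centring on the median -0.64 (adjusted p = 0.0477).

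Tbx6, the T-box factor of presomitic mesoderm, was the only tested member called higher in TKO, and the call did not hold in every setting. The probe used for the test (A_55_P2061273, chr7:133929000-133929059, plus strand, mm9) read -2.14, -1.83 and -1.93 on the WT arrays against -1.68, -1.59 and -1.68 on the TKO arrays. No TKO value fell as low as any WT value, and the difference was 0.31 ± 0.0879 (adjusted p = 0.025). It was positive in all 17 alternatives (0.12 to 0.38) but passed the threshold in 7, and was lost without WT dish 3 (0.33) and without TKO dish 1 (0.33), 2 (0.28) or 3 (0.33). Within the first row of the slide it was 0.28 and not called. The second Tbx6 probe (A_55_P2061275, chr7:133928828-133928887) read -3.51, -3.03 and -3.04 on the WT arrays against -2.75, -2.9 and -3.19 on the TKO arrays, with overlapping groups and a difference of 0.25 (adjusted p = 0.282).

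**Figure D2:**
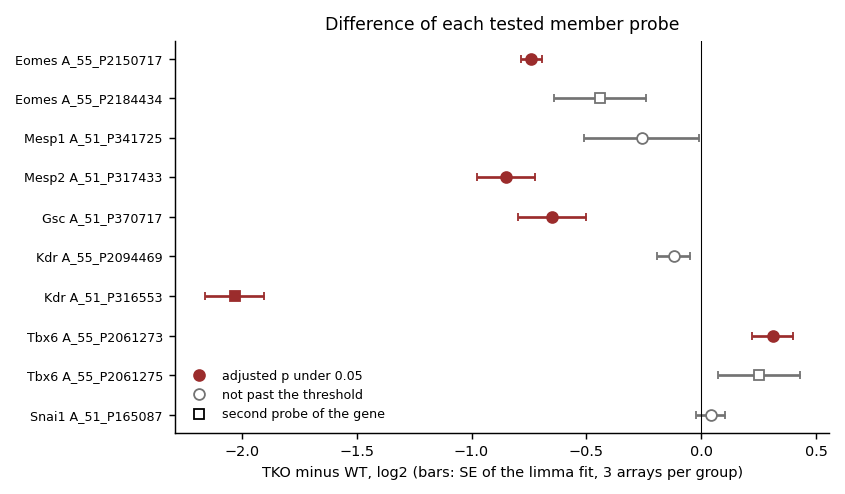
Difference between TKO and WT, on the log2 scale, for the 10 member probes that were tested; bars are the SE of the limma fit over all kept probes with 3 arrays per group, and squares are second probes of a gene. Filled symbols passed an adjusted p of 0.05: Eomes, Mesp2 and Gsc lie between -0.85 and -0.65, the second Kdr probe at -2.03 and Tbx6 at 0.31.

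Gsc, the homeobox repressor of the organiser at the anterior end of the streak, fell in TKO. Its probe (A_51_P370717, chr12:105709426-105709485, minus strand, mm9) read -1.41, -1.36 and -1.36 on the WT arrays against -1.71, -2.1 and -2.28 on the TKO arrays. All 3 TKO dishes were lower, TKO dish 1 least, and the difference was -0.65 ± 0.145 (adjusted p = 0.0105). Gsc was called in all 17 alternatives, but with the array row as a block, and in the first row alone, its difference was -0.33. Both of these settings rest on TKO dish 1 as the only TKO dish compared with WT. TKO dishes 2 and 3 are the arrays of the second row. Of its neighbours, Dicer1, which cuts microRNA precursors, was higher by 0.39, and Serpina3m, a protease inhibitor gene that no WT array measured, was at least 71.3-fold higher (adjusted p = 4.35e-05).

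Evx1, a homeobox factor of the posterior streak, was near the detection limit. Its probe (A_55_P2125521, chr6:52268298-52268357, plus strand, mm9) read -4.88, -4.83 and -4.86 on the WT arrays against -4.94, -5.81 and -6.37 on the TKO arrays. Only WT dish 2 was well above background, so no fold change can be given. Without the filter on dim probes the difference was -0.85 (adjusted p = 0.152). Mixl1, the homeobox factor of streak cells that turn to mesoderm and endoderm, was not well above background on any array. Its probe (A_52_P533129, chr1:182624310-182624369, minus strand, mm9) read -7.13, -7.4 and -7.09 on the WT arrays against -7.27, -6.42 and -6.55 on the TKO arrays, and the groups overlapped.

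Mesp1 and Mesp2 are neighbouring genes for related basic helix-loop-helix factors, Mesp1 of early and cardiac mesoderm and Mesp2 of somite boundaries. Their probes lie 20.6 kb apart on chromosome 7. Mesp2 (A_51_P317433, chr7:86957849-86957908, plus strand, mm9) read -2.01, -2.03 and -1.91 on the WT arrays against -2.76, -2.63 and -3.1 on the TKO arrays. The groups were well apart, with a difference of -0.85 ± 0.127 (adjusted p = 0.00217), and Mesp2 was called in all 17 alternatives. Normexp gave the smallest difference (-0.51) and quantile normalization the largest (-1.06).

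Mesp1 (A_51_P341725, chr7:86937140-86937199, minus strand, mm9) read -4.38, -4.14 and -4.7 on the WT arrays against -4.75, -5.05 and -4.22 on the TKO arrays. TKO dish 3 lay among the WT dishes and TKO dish 2 was not well above background. The difference of -0.26 ± 0.25 did not pass the test (adjusted p = 0.402), and its 95% interval of -0.89 to 0.36 includes the difference measured for Mesp2. The genes on the outer sides of the pair were Anpep, an aminopeptidase gene next to Mesp2 (-0.26, adjusted p = 0.0148), and Wdr93 next to Mesp1 (0.27, adjusted p = 0.287).

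Snai1, the zinc finger repressor of E-cadherin, did not differ beyond the spread between dishes. Its probe (A_51_P165087, chr2:167368073-167368132, plus strand, mm9) read -1.09, -1.04 and -1.16 on the WT arrays against -0.96, -1.06 and -1.14 on the TKO arrays. The difference was 0.04 ± 0.0612 (adjusted p = 0.563), with a 95% interval of -0.11 to 0.2. Its sign depended on the scaling: it was -0.08 after quantile normalization and -0.15 after centring on the median, and no setting gave a call.

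Kdr gave different answers through its 2 probes. The brighter one (A_55_P2094469, chr5:76330395-76330454, minus strand, mm9) read 2.94, 2.82 and 2.88 on the WT arrays against 2.64, 2.87 and 2.76 on the TKO arrays, with overlapping groups and a difference of -0.12 ± 0.0702 (adjusted p = 0.181, 95% interval -0.3 to 0.05). It passed after centring on the median (-0.32, adjusted p = 0.00602). The dimmer one (A_51_P316553, chr5:76329309-76329368, minus strand, mm9), the mean of 10 spots per array, read -3.17, -3.29 and -3.23 on the WT arrays against -4.99, -5.47 and -5.33 on the TKO arrays. Every TKO dish was lower than every WT dish, and in TKO only dish 1 was well above background. In the fit over all kept probes the dimmer probe differed by -2.03 ± 0.129 (adjusted p = 8.64e-05, 95% interval -2.36 to -1.71). Within the first row of the slide it differed by -1.76, and with normexp by -0.51.

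The probes lie 1086 bases apart. The first 30 bases of each probe are shown because the result depends on which of them is read, and their sequences name the places measured.
Kdr A_55_P2094469: tgtttaaatggaagtggtcctgtcccggct
Kdr A_51_P316553: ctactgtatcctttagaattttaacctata
The log2 ratio of the brighter to the dimmer Kdr probe within each array was 6.12, 6.11 and 6.11 on the WT arrays, against 7.63, 8.34 and 8.1 on the TKO arrays. The ratio was larger in TKO on every array (difference 1.91 ± 0.182, 95% interval 1.46 to 2.36, adjusted p = 0.00129 with limma over the 6244 genes that have at least 2 kept probes). Of these genes 22.7% were called, and in 2.15% the ratio differed by at least as much as for Kdr. A ratio within an array shows unequal change of the 2 probes, not which of them follows the Kdr transcript. Its size rests on signal near background, since the dimmer probe was not well above background in TKO dishes 2 and 3. With normexp the difference of the ratio was 0.36, past the threshold. Within the first row, where TKO dish 1 is the only TKO array, it was 1.52.

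The other genes with more than 1 probe were Eomes and Tbx6. The Eomes ratio changed by -0.3 ± 0.204 (adjusted p = 0.378, 95% interval -0.81 to 0.21), and the Tbx6 ratio, over probes 172 bases apart, by 0.06 (adjusted p = 0.802, 95% interval -0.27 to 0.4). Both intervals include 0. The Eomes ratio passed the threshold in 2 of 13 alternatives. With normexp it was -0.43 ± 0.0729 (adjusted p = 0.00288), where its size was no smaller than that of Kdr (0.36 ± 0.0571). With the array row as a block it was -0.73, which rests on TKO dish 1 as the only TKO dish compared with WT.

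**Figure D3:**
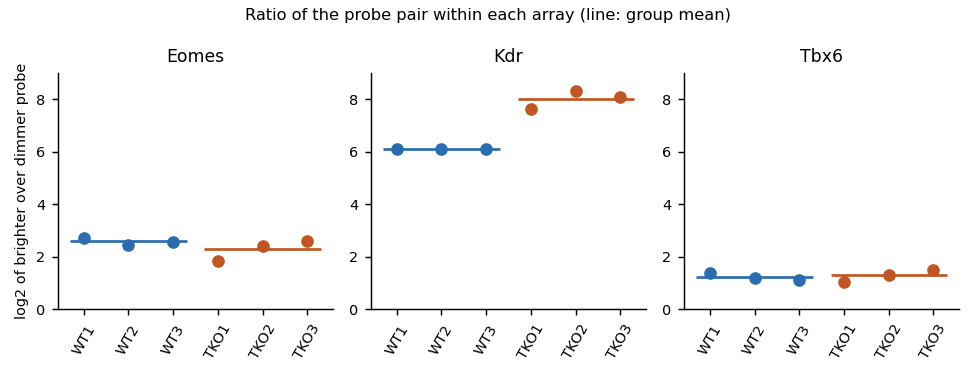
Log2 ratio of the brighter to the dimmer probe of Eomes, Kdr and Tbx6 within each array; lines are group means over 3 arrays. For Kdr the WT arrays sit at 6.11 to 6.12 and the TKO arrays at 7.63 to 8.34, and for the other genes the groups overlap.

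Of the 13 member probes, 6 contain AATAAA, the hexamer of the polyadenylation signal (searched on the probe strand), against 10.1% of all probes on the array. They are those of T, Mesp1, Gsc and Evx1, the dimmer Eomes probe and the brighter Tbx6 probe. Among these, the groups of T, Gsc, Evx1 and the brighter Tbx6 probe did not overlap. Stretches of 30 bases with the hexamer in capitals are given for T and Gsc as examples.
T A_55_P2029161: tgttttctgcacAATAAAggcaatatatag
Gsc A_51_P370717: cggtgacaatacAATAAAgtgatggcaatg

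The other genes of streak and mesoderm formation moved in both directions. A total of 6 lists with 95 genes were followed, and the shares called are to be read against the 59.7% of all tested genes. Their medians are the same when genes with only a bound are set at that bound. Of the streak-inducing signals and their effectors, 25 were tested, 15 rose, 6 fell and 4 did not pass (median difference 0.31). The Wnt ligand genes Wnt8a and Wnt3, measured on no WT array, were at least 27.5-fold (adjusted p = 2.7e-06) and at least 3.68-fold (adjusted p = 0.00108) higher. Lefty1, an inhibitor of Nodal, rose by 3.06 ± 0.0794 (adjusted p = 4.18e-06). The Nodal gene itself rose by 1.75 ± 0.0453 (adjusted p = 4.09e-06), and is given as the ligand that Lefty1 inhibits and not for its size. Bmp4, the ligand that induces posterior mesoderm, fell by 3.64 on the log2 scale (adjusted p = 1.38e-06), the Nodal co-receptor gene Tdgf1 by 1.05 and the activin receptor gene Acvr1b by 0.57.

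Among genes of exit from the streak and of the epithelial-mesenchymal transition, 13 were tested, 8 rose and 3 fell (median 0.5). The rises with the largest size were in Cdx2, a caudal homeobox factor of posterior tissues and trophoblast, at least 3.62-fold (adjusted p = 0.00128), in Epcam, an epithelial adhesion molecule (2.05), and in Amot, a regulator of Hippo signalling (1.52). The growth factor gene Fgf3 fell by 0.85, the repressor gene Zeb1 by 0.67 and the intermediate filament gene Vim by 0.5. Cdh1, which encodes the E-cadherin that Snai1 represses, was higher by 0.37 ± 0.0362 (adjusted p = 0.000356), while Snai1 itself did not pass the test; it was chosen for its link to Snai1 and not for its size.

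Of the organiser and definitive endoderm list, to which Gsc is closest in function, 8 were tested, 1 rose, 2 fell and 5 did not pass (median -0.16). The homeobox gene Hesx1 rose by 2.98 ± 0.064 (adjusted p = 2.72e-06). Sox17, the endoderm factor, fell by 0.55 and the BMP antagonist gene Nog by 0.34. Cer1, Noto, Dkk1 and Shh were well above background on no array.

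Of the presomitic and paraxial mesoderm list, the setting of Tbx6 and Mesp2, 10 were tested, 5 rose and 3 fell (median 0.47). The Notch ligand gene Dll1 rose by 3.32 ± 0.0514 (adjusted p = 1.38e-06), Lfng, which modifies Notch, by 1.73 with 1 WT array well above background, and the retinoic acid synthesis gene Aldh1a2 by 0.91. The forkhead gene Foxc2 fell by 1.73, Tcf15 by 0.98 and the segmentation clock gene Hes7 by 0.29. Msgn1, a factor of early presomitic mesoderm, was well above background on no array.

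In the lateral plate and cardiac list 9 were tested, 3 rose and 2 fell (median 0.32). Hand1, a factor of lateral mesoderm and trophoblast, was measured on no WT array and was at least 4.66-fold higher (adjusted p = 0.00109), and Gata6 rose by 0.81. Isl1, a factor of cardiac progenitors measured on no TKO array, was lower (adjusted p = 0.000414), and Gata4 fell by 0.2. The bound for Isl1 came to 1.39-fold, but it is not secure, since the limit of a single probe can be higher. Isl1 read -4.22, -4.33 and -4.36 on the WT arrays. The T probe, at -4.05, was not well above background in TKO dish 3. In the haemato-endothelial list, the setting of Kdr, all 11 tested genes were called, 6 higher and 5 lower (median 0.35). The angiopoietin receptor gene Tek rose by 1.99, Etv2, a factor of blood and vessel progenitors, by 1.86 and the VEGF receptor gene Flt1 by 1.56. The blood factors Runx1 and Tal1 fell by 2.18 and 1.31, and the Kdr ligand gene Vegfa by 1.25.

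**Figure D4:**
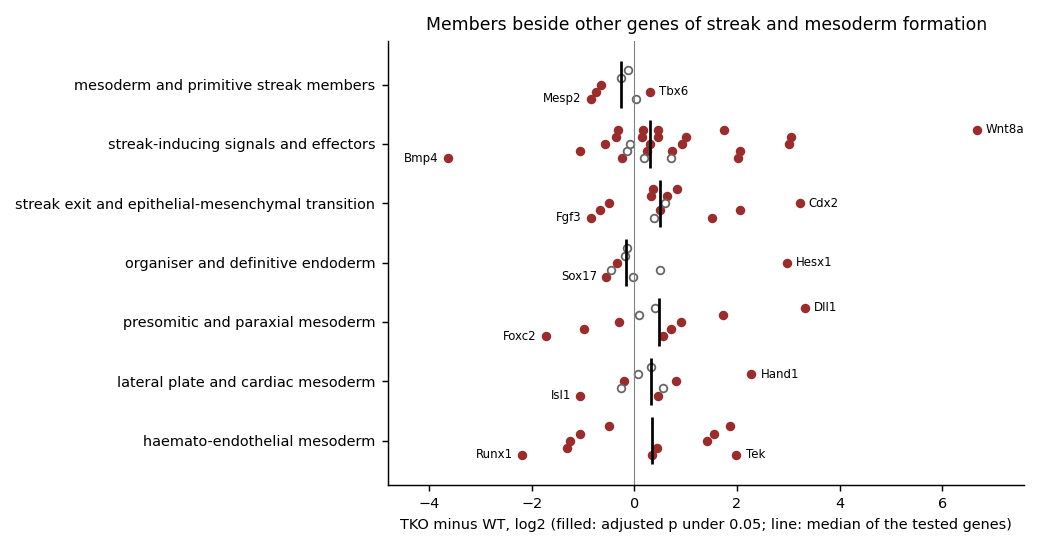
Difference between TKO and WT, on the log2 scale, for every tested member and every tested gene of the 6 other lists; filled points passed an adjusted p of 0.05, black lines are medians, and the lowest and highest gene of each list are named. Values of genes not well above background in a group (such as Wnt8a, Wnt3, Cdx2, Hand1 and Isl1) are fitted values and not bounds. The medians of the members (-0.26) and of the organiser list (-0.16) lie below 0 and those of the 5 other lists between 0.31 and 0.5.

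Over the members as a whole, the nearest tested neighbours lay on both sides of 0. The tested neighbours nearest to Eomes were Cmc1 (-0.31) and Golga4 (0.29), those of Kdr were the receptor gene Kit (-0.19) and Srd5a3 (-0.59), and those of Tbx6 were Ypel3 (0.37) and Ppp4c (-0.15). Rnf114 (0.55) and Ube2v1 (0.21) flank Snai1, Hoxa11os (-0.49) and Hibadh (-0.55) flank Evx1, and Lin9 (-0.08) and Acbd3 (0) flank Mixl1. Of the tested genes within 1 Mb of the members that fell, 3 of 17 were higher and 10 lower around Eomes, 11 of 36 higher and 12 lower around Mesp2, and 10 of 19 higher and 4 lower around Gsc. Around Tbx6, 36 of 66 were higher and 10 lower. Around the other members the counts were 4 of 9 higher and 5 lower for T, 5 of 17 and 3 for Mixl1, 11 of 36 and 13 for Mesp1, 1 of 12 and 8 for Evx1, 2 of 12 and 9 for Kdr, and 14 of 23 and 3 for Snai1. Over all tested genes 30% were higher and 29.7% lower, and neighbourhoods that leaned one way were found around members that did and did not move that way.

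Other measures moved with the groups. Tet1 and Tet2 were lower in TKO through their brightest probes (-1.37 ± 0.043 and -2.93 ± 0.0544), and Tet3 did not pass the test (-0.24 ± 0.098, adjusted p = 0.0842). Since the altered exons are not given, these probes do not test the genotype. All 10 markers of embryonic stem cells were well above background on all arrays, and 8 were lower in TKO, with summed levels of 974 to 1050 in WT and 664 to 726 in TKO, in multiples of the 75th percentile. The fall was uneven, largest in Zfp42 (-4.07), Tfcp2l1 (-1.65) and Klf4 (-1.06). Pou5f1, Nanog, Sox2, Esrrb and Klf2 differed by -0.48 to -0.31, and Dppa5a and Utf1 did not pass the test. Of 15 fibroblast markers, which feeder cells would carry, 13 were tested, 10 were higher and 1, Pdgfrb, lower in TKO. Their summed levels were 29.7 to 30.5 in WT and 37.8 to 40.9 in TKO, and Lum was well above background on no array. Of 8 endothelial markers, 5 were tested; Tek (1.99), Flt1 (1.56), Esam (1.1) and Pecam1 (0.44) were higher in TKO and Vwf (-1.91) was lower. Cdh5, Tie1 and Emcn were well above background on no array. The summed levels of the list were 3.92 to 4.14 in WT and 2.75 to 3.07 in TKO. This fall follows Vwf alone, the brightest of the 5 in WT (levels 1.46 to 1.53, and -0.51 to -0.32 in TKO). It does not describe the tested markers that rose. The part of these differences in the values of the members was not tested.

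The arrays were of like brightness, with a 75th percentile of 366.93 to 412.94 intensity units. No spot was saturated, and the share of spots well above background was 51.9% to 58.5%. The 3 WT arrays and TKO dish 1 lay in the first row of the slide, where the background-subtracted negative controls had an SD of 2.24 to 2.52 intensity units, against 3.16 to 3.22 for TKO dishes 2 and 3 in the second row. In the processed signal, from which the levels come, the SD of the negative controls differed more. It was 1.01 to 3.92 on the WT arrays and 0.834, 13.1 and 7.06 in TKO dishes 1, 2 and 3. For T, Evx1, Mixl1, Mesp1 and the dimmer Kdr probe, whose signals lie close to these limits, detection in TKO therefore rests on arrays that differ in their background. With 3 arrays per group, precision is limited throughout.

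**Figure D5:**
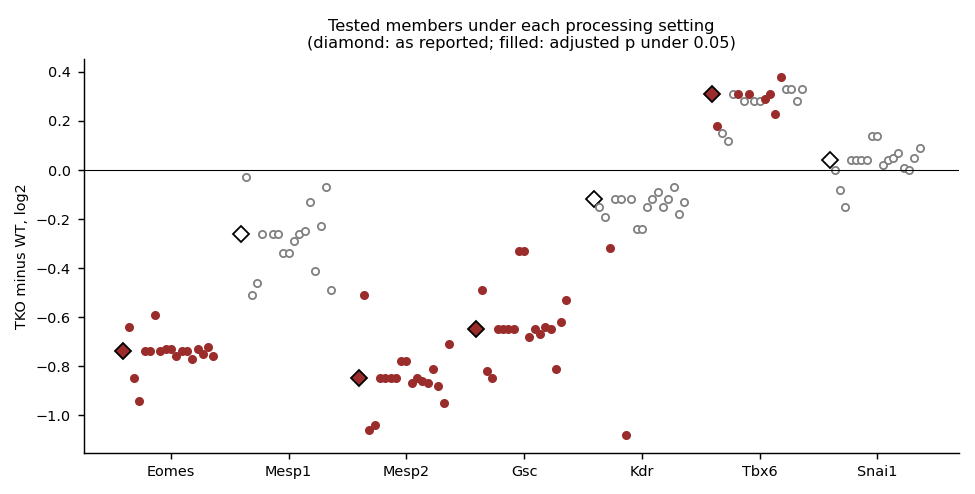
Difference between TKO and WT, on the log2 scale, for the 7 tested members under every processing setting; diamonds are the values as reported, and filled symbols passed an adjusted p of 0.05. Eomes, Mesp2 and Gsc stay filled and below 0 in every setting shown, Tbx6 stays above 0 and is filled in 7 of 17 alternatives, and Snai1 crosses 0.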

How the data were processed

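Agilent Feature Extraction 11.5.1.1 is named in the submitters' processing notes. The deposited processed, mean and background signals are linear intensity values, of which the processed signal is background-subtracted and detrended within its array per the file headers. The deposited flags (well above background, positive and significant, outlier) are values of 0 or 1 (other). The authors' deposited value table held log2 signals shifted by a constant per array (55681 of 55821 entries matched, Pearson r = 1), with column medians of -3.97, -3.97 and -4.03 (WT) and -3.9, -3.74 and -3.82 (TKO); its scale and centring are not stated. Probe positions are on mm9 per the file headers, and RefSeq promoters on GRCm38.p6; no exon annotation of mm9 was used here.

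Control spots (leaving 59305 of 62976) and outlier spots were dropped, spots of a probe averaged as log2 values, and each array's 75th percentile subtracted. Of 55681 probes, 30734 were kept. Groups were fitted with lmFit and eBayes of limma 3.58.1 in R 4.3.3 (two-sided). The fit alone was tried on simulated levels in which few genes changed, which did not test the normalization or the array row. A bound sets the brighter group's mean against, per array of the dimmer group, the higher of the lowest signal well above background and the probe's own. That lowest signal is taken over all probes of an array, and the limit for a single probe can be higher. The probe-ratio test was chosen after seeing the data. Members and lists were chosen with earlier results of these data known. Named genes were all members, up to 3 called higher and 3 lower per list with groups apart, the nearest tested neighbours within 1 Mb, and Tet1, Tet2 and Tet3. Alternatives were background correction, normalization, filter, probe choice, replicate and row blocks, the value table, the variance model and leaving out each dish. Same-numbered arrays deviated from their group means with correlations of -0.07, -0.02 and 0.01. These values show no pairing by number, and cannot tell whether same-numbered dishes were handled together. Protein sequences were not used here.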

Additional observations from a re-analysis of the deposited data

How the results depend on the processing

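Over all tested genes, 10089 to 13429 were called under the alternatives, against 12862. The members called lower numbered 3 to 4 in every alternative, the added one being Kdr. With the array row as a block and in the first row alone, TKO dish 1 is the only TKO dish compared with WT. Calls in these settings therefore do not measure the spread between TKO dishes. The number called higher, 1 as reported (Tbx6), was 0 after quantile normalization, after centring on the median, with the mean of a gene's kept probes, with the array row as a block and in the first row alone, and 0 to 1 when each dish was left out in turn. Without the filter on dim probes the count was again 1, with T in the place of Tbx6. Snai1 changed sign after quantile normalization (-0.08) and median centring (-0.15), and lay between 0.00 and 0.09 when dishes were left out. The ratio of the Tbx6 probes turned to -0.16 with the row as a block and in the first row alone, and ranged from -0.04 to 0.18 when dishes were left out. The Kdr ratio fell to 0.36 with normexp, still called. The brighter Kdr probe was called lower after median centring (-0.32), and Kdr as the mean of both probes at -1.08. With the replicate number as a block, 11619 genes were called, 1 member higher and 3 lower, and no call of a member changed. Mesp1 gave no value when a probe had to be well above background on all 6 arrays. The causes of these changes were not tested. Signal over background limits T, Mixl1, Evx1, Mesp1 and the dimmer Kdr probe. Normexp shrank their differences, and those of all other member probes but the brighter Kdr probe (-0.12, and -0.15 with normexp). Eomes, through its brighter probe, went from -0.74 to -0.64 and Mesp2 from -0.85 to -0.51.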
